A study of Rattus norvegicus with 6 samples.

Results

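The 5′ fragments of cytosolic tRNA-Gly-GCC, tRNA-Glu-CTC, tRNA-Lys-CTT, tRNA-Val-AAC, tRNA-Val-CAC, tRNA-His-GTG and tRNA-Asp-GTC were examined in rat liver small RNA. A fragment was counted when its first 18 bases equalled the 18-base start taken for the mature tRNA, whatever its length. The start taken for Asp-GTC, the most-read one, may not be that of the mature tRNA, as described below. Of 1528721 different read sequences (tags), 384 met this rule, and they held 27423 reads in all. tRNA-Val-AAC and tRNA-Val-CAC begin with the same 18 bases and could not be told apart, so the 7 tRNAs gave 6 groups. There were 54 tags for Gly-GCC, 77 for Glu-CTC, 40 for Lys-CTT, 125 for Val-AAC/CAC, 63 for His-GTG and 25 for Asp-GTC.

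The libraries came from liver of Wistar rats, 3 with nonalcoholic fatty liver disease (NAFLD) and 3 normal, all labelled as 4 months old, where the study's methods give another age. In the study's methods, NAFLD was produced by a fast followed by a starch-rich diet, and normal rats kept a standard diet. Fat content entered the selection of the NAFLD livers only: they were taken from the fattier ones by triglyceride assay, and no such criterion was applied to normal livers. The gel slice that was sequenced spanned 18 to 30 nt.

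A tRNA carries 1 amino acid to the ribosome and reads the codon with its anticodon. Cutting of a mature tRNA in the D loop or the anticodon loop leaves a 5′ piece, and such pieces are abundant among the small RNAs of many tissues, with angiogenin known as one of the nucleases that cut the anticodon loop under stress. The first bases of a tRNA pair with bases near its 3′ end to form the acceptor stem. tRNA-His is exceptional in that a G is added enzymatically in front of its first base, where the histidyl-tRNA synthetase recognises it.

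The 18-base starts that define the groups are given first, because every value below is a sum over tags that begin with them. Capitals mark the 7 bases of the acceptor stem, except in the second His start, where the capital marks the added G, and in the second Asp start, where it marks position 9.
tRNA-Gly-GCC: GCATTGGtggttcagtgg
tRNA-Glu-CTC: TCCCTGGtggtctagtgg
tRNA-Lys-CTT: GCCCGGCtagctcagtcg
tRNA-Val-AAC and tRNA-Val-CAC: GTTTCCGtagtgtagtgg
tRNA-His-GTG: GCCGTGAtcgtatagtgg
tRNA-His-GTG with the added G: Ggccgtgatcgtatagtg
tRNA-Asp-GTC: TCCTCGTttgtatagtgg
tRNA-Asp-GTC, second start: tcctcgttAgtatagtgg

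Only the Gly start could be read from a reference gene. RefSeq places Trnag-gcc2 at chr10:54322802-54322872 on the minus strand of GRCr8, in the promoter window of Hes7, and 97.9% of the Gly-GCC reads equalled this tRNA gene to their last base. The other starts were taken as the most-read 18-base start behind a 7-base start known from general knowledge of these tRNAs. Their names rest on that start, since very few reads reached the anticodon and none of them covered all of its bases. For the same reason the Gly-GCC reads could not be told from those of other glycine tRNAs with this start. RefSeq lists 5 Gly-CCC genes, and whether they share the Gly-GCC start was not tested. For Asp-GTC the most-read start had T at position 9 with 358 reads, while the start with A had 314 reads, and the only 3 Asp reads that ran past the 5′ end all had A there. General knowledge of this tRNA also gives A, so levels, fold changes and lengths are given for both starts. The tag count, the sum of the 6 groups and the order of abundance use the start with T, and the start with A held 24 tags. Its tag of highest mean abundance was also 19 nt long.

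The tag with the highest mean abundance in each group is shown next, to show where the most-read fragments end, although it held only 25.8% of the Lys-CTT reads and 20.6% of the Val-AAC/CAC reads. Capitals mark the 18 bases used for the match.
tRNA-Gly-GCC, 26 nt: GCATTGGTGGTTCAGTGGtagaattc
tRNA-Glu-CTC, 28 nt: TCCCTGGTGGTCTAGTGGttaggattcg
tRNA-Lys-CTT, 28 nt: GCCCGGCTAGCTCAGTCGgtagagcatg
tRNA-Val-AAC and tRNA-Val-CAC, 20 nt: GTTTCCGTAGTGTAGTGGtt
tRNA-His-GTG with the added G, 20 nt: GGCCGTGATCGTATAGTGgt
tRNA-Asp-GTC, 19 nt: TCCTCGTTTGTATAGTGGt

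The libraries held 11601058 to 11880695 clean reads, and abundance was expressed as TPM, here the reads of a start or tag per 1000000 clean reads of its library. A count of 3 reads, the limit that a count of 0 allows, corresponds to 0.253 to 0.259 TPM. The hepatocyte miR-122-5p stood at 445063 to 595583 TPM in every library, as the tissue label has it. The rate of substituted bases divided the libraries, and the cause was not tested. Position 4 of the most abundant tag was substituted in 1.39% to 1.63% of reads in NAFLD 2, NAFLD 3 and normal 2, and in 0.0231% to 0.026% of reads in the other 3. These libraries are called the high and low substitution sets below, a division known from earlier results of these data. Exact matching loses more reads in the high set, where position 14 of the starts was substituted in 10.1% to 25.6% of member reads, against 0 to 0.962% in the low set.

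The 6 groups together made up 872, 288 and 315 TPM in NAFLD 1, 2 and 3, and 439, 177 and 244 TPM in normal 1, 2 and 3. NAFLD 1 stood above all others, and the remaining NAFLD libraries lay within the range of the normal ones. The mean was 492 ± 330 TPM (SD, n = 3) in NAFLD and 287 ± 136 TPM in normal liver, a ratio of 1.72. The two-sided exact permutation test on log2 TPM gave p = 0.4, where 3 libraries against 3 cannot go below 0.1. Without NAFLD 1 the mean difference fell from 0.69 to 0.18 on the log2 scale. With 1 substitution allowed in the start, the sums were 1021, 437 and 493 TPM in NAFLD and 493, 257 and 281 TPM in normal liver. With the A start of Asp-GTC in place of the T start, the mean log2 difference of the sum was 0.68 (exact permutation p = 0.4).

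Val-AAC/CAC was the most abundant group in 6 of 6 libraries, Lys-CTT the fifth and Asp-GTC the least abundant. The A start of Asp-GTC stood below the other groups in 5 of 6 libraries. Gly-GCC exceeded His-GTG in 6 of 6 libraries. Glu-CTC exceeded Gly-GCC in only 3 and His-GTG in 4, so its place between them changed from library to library.

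NAFLD and normal libraries overlapped in all 6 groups. The change was tested with edgeR's quasi-likelihood test on counts summed over every 18-base start, 10515 starts in all. Of these starts 0 had an adjusted p under 0.05 (0%), 998 had an unadjusted p under 0.05, and 996 of the 998 were higher in NAFLD. Of the 6 groups, 0 passed at an adjusted or an unadjusted p under 0.05. The other tools called 0 starts (limma) and 92 starts (DESeq2), and the members among them were 0. The number of groups in which every NAFLD library exceeded every normal one was 0, against 19.2% of the starts tested. All 6 estimates were above 0, but the median over all starts was also 1.11 on the log2 scale, so the estimates are given beside that shift.

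Val-AAC/CAC fragments, which come from the valine tRNAs, were read at 401, 202 and 144.4 TPM in NAFLD 1, 2 and 3, and at 324, 103 and 144.4 TPM in normal 1, 2 and 3. NAFLD 1 and normal 1 were the highest of their groups, and NAFLD 3 and normal 3 were level. The log2 fold change of NAFLD over normal was 0.39 ± 0.61 (SE, n = 3), with an edgeR adjusted p of 0.756, at -0.72 relative to the median start. On tags of 26 nt or more alone it was 1.64, at -0.11 relative to the median start of that fit.

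Glu-CTC fragments, from the tRNA that carries glutamate, were read at 210, 23.3 and 77.7 TPM in NAFLD and at 21.3, 35.4 and 19.5 TPM in normal liver. NAFLD 1 and NAFLD 3 exceeded all normal libraries, but NAFLD 2 was below normal 2. The log2 fold change was 2.03 ± 0.83 (SE, n = 3) with an edgeR adjusted p of 0.533, 0.92 above the median start. Without NAFLD 1 it was 0.99, at -0.30 relative to the median start of that fit. On tags of 18 to 25 nt alone the log2 fold change was 0.60, and on tags of 26 nt or more 2.31. Relative to the median start of each of these fits, Glu-CTC was at -0.40 and 0.56.

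Gly-GCC fragments, from a glycine tRNA, were read at 127, 30.8 and 47.1 TPM in NAFLD and at 49.7, 25.5 and 46.5 TPM in normal liver. Apart from NAFLD 1 the libraries lay in 1 range. The log2 fold change was 0.75 ± 0.64 (SE, n = 3), with an edgeR adjusted p of 0.753, and without NAFLD 1 it was -0.059.

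His-GTG fragments were read at 86.6, 23.1 and 24.9 TPM in NAFLD and at 30.4, 10.1 and 25.7 TPM in normal liver. NAFLD 2 and NAFLD 3 stood below normal 1 and normal 3. The log2 fold change was 1.02 ± 0.74 (SE, n = 3) with an edgeR adjusted p of 0.731, close to the median start.

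Lys-CTT fragments, from one of the lysine tRNAs, were read at 33.3, 5.87 and 17.2 TPM in NAFLD and at 7.17, 1.85 and 4.88 TPM in normal liver. Their start differs by 1 base from that of the more abundant Lys-TTT, as described below. Only NAFLD 2 fell within the normal range, below normal 1. The log2 fold change was 2.02 ± 0.85 (SE, n = 3) with an edgeR adjusted p of 0.542, 0.90 above the median start. Without NAFLD 1 it was 1.31, and the distance from the median start was 0.016. The log2 fold change was 1.24 on tags of 18 to 25 nt alone and 2.85 on tags of 26 nt or more. Relative to the median start of each of these fits, Lys-CTT was at 0.24 and 1.10. Of the 6 groups' reads, Lys-CTT took 2.04% to 5.46% in NAFLD and 1.05% to 2.00% in normal liver (exact permutation p = 0.1, the smallest the design allows, in 1 of 6 such comparisons). The lowest NAFLD share, in NAFLD 2, and the highest normal share, in normal 3, were nearly equal. They rested on 69 and 58 Lys-CTT reads.

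Asp-GTC was the sparsest group, with 8 to 167 reads in a library. It was read at 14.4, 2.72 and 3.39 TPM in NAFLD and at 6.50, 0.674 and 2.86 TPM in normal liver. The second start, with A at position 9, was read at 9.91, 3.06 and 2.71 TPM in NAFLD and at 4.98, 1.01 and 5.05 TPM in normal liver. Neither start separated the conditions, with log2 fold changes of 1.03 ± 1.06 and 0.51 ± 0.88 (SE, n = 3) and edgeR adjusted p of 0.753 and 0.762.

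The substitution sets cut across the conditions, with 1 NAFLD and 2 normal libraries in the low set and 2 NAFLD and 1 normal in the high set. Within both sets every NAFLD library exceeded every normal one for Gly-GCC, Lys-CTT, Val-AAC/CAC, His-GTG and Asp-GTC, which is 5 of 6 groups, while 53.8% of all starts did the same. Glu-CTC was the exception, through NAFLD 2. With the set as a covariate in the edgeR fit, 845 of the starts passed an adjusted p under 0.05 (8.04%), and 2 of the 6 groups were among them. These were Lys-CTT, with a log2 fold change of 2.54 ± 0.53 (SE) and an adjusted p of 0.0239, and His-GTG, with 1.44 ± 0.36 and 0.0387. The edgeR adjusted p of the other groups under this covariate was 0.0562 for Asp-GTC, 0.0717 for Glu-CTC, 0.0927 for Gly-GCC and 0.171 for Val-AAC/CAC. The A start of Asp-GTC had a log2 fold change of 1.21 and an edgeR adjusted p of 0.114, against 1.85 for the T start. The median start stood at 0.99 in that fit. A total of 22 fits across starts was run, and only this covariate, with or without 1 substitution allowed, called a member.

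The sign of the smaller changes depended on the scaling. With TMM factors, which centre the libraries on most starts, Gly-GCC was at -0.20 and Val-AAC/CAC at -0.42, and the larger estimates of Glu-CTC and Lys-CTT were 0.95 and 1.20. Reads of 26 nt or more were 3.38%, 2.80% and 3.30% of all clean reads in NAFLD 1, 2 and 3, against 0.625%, 1.54% and 0.632% in normal 1, 2 and 3. Relative to those long reads, 5 groups were below 0, from -1.79 for Val-AAC/CAC to -0.25 for Lys-CTT, and Glu-CTC was at 0.096. The median over all starts was also below 0 in that fit, at -0.83. Measured from that median, the groups ran from -0.96 for Val-AAC/CAC to 0.92 for Glu-CTC. A higher share of tRNA fragments and a lower share of the abundant miRNA reads cannot be told apart in these libraries. miR-122-5p stood at 445063 to 465119 TPM in NAFLD and at 560716 to 595583 TPM in normal liver, and its part in the results was not tested.

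The 6 groups fell into 2 kinds by length, which the matching rule did not use. In 6 of 6 libraries every one of Gly-GCC, Glu-CTC and Lys-CTT had a larger share of reads of 26 nt or more than every one of Val-AAC/CAC, His-GTG and Asp-GTC. The share ranged from 24.7% to 95.2% in the former and from 0 to 12.5% in the latter. The most-read length was 26 nt for Gly-GCC, with 36.9% of its reads, and 28 nt for Glu-CTC, with 56.3%. For Lys-CTT it was 28 nt over all reads, with 26.5%, but in only 1 of 6 libraries, the others having 19, 29, 20, 27 and 22 nt. It was 20 nt for Val-AAC/CAC and His-GTG over all reads, with 20.8% and 24.5%, but in only 3 of 6 libraries for each. For Asp-GTC it was 19 nt, with 75.7% (56.4% for the A start). Val-AAC/CAC had no single usual end, since its tags of 20, 23 and 22 nt held 20.6%, 17.6% and 16.99% of its reads. Ends at 18 to 22 nt, in or near the D loop, made up 61.0% of Val-AAC/CAC, 79.8% of His-GTG and 90.8% of Asp-GTC reads, but also 31.2% of Gly-GCC, 11.5% of Glu-CTC and 36.1% of Lys-CTT reads. Ends at 26 to 31 nt, along the 5′ side of the anticodon stem, made up 63.5% of Gly-GCC, 86.0% of Glu-CTC and 53.8% of Lys-CTT reads. Ends at 32 to 35 nt, in the anticodon loop, made up 1.30% of Glu-CTC and 2.55% of Lys-CTT reads. Since the gel slice ended at 30 nt, 5′ pieces reaching into the anticodon loop would mostly lie outside it.

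The most abundant Gly-GCC tag, of 26 nt, had 520, 87 and 149 reads in NAFLD and 217, 80 and 338 reads in normal liver. The most abundant Glu-CTC tag, of 28 nt, had 1436, 119 and 481 reads in NAFLD and 57, 250 and 160 reads in normal liver. Both overlapped between conditions, and so did the leading tags of the other groups.

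No difference in the share of long fragments between NAFLD and normal liver was larger than the spread between libraries. Glu-CTC had 90.9%, 82.8% and 91.7% of its reads at 26 nt or more in NAFLD, and 33.3%, 95.2% and 81.5% in normal liver. The low value of normal 1 set its group apart in the mean, and 19 nt was its most-read Glu-CTC length. Gly-GCC had 72.8%, 39.8% and 57.3% in NAFLD and 47.2%, 70.6% and 74.3% in normal liver. Lys-CTT had 59.8%, 31.9% and 75.9% in NAFLD and 24.7%, 63.6% and 37.9% in normal liver, resting on 22 to 386 reads of this tRNA per library. The mean share was 3.47% ± 1.67 in NAFLD and 1.88% ± 1.63 in normal liver (SD, n = 3) for Val-AAC/CAC, 0.979% ± 1.02 and 0.774% ± 0.84 for His-GTG, and 8.17% ± 4.42 and 5.15% ± 6.54 for Asp-GTC. The A start of Asp-GTC had 14.8%, 8.33% and 9.38% in NAFLD and 0, 8.33% and 5% in normal liver (exact permutation p = 0.2). The exact permutation p lay between 0.3 and 0.8 for the 6 groups, and between 0.72 and 0.8 after Benjamini-Hochberg adjustment over the 6.

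Glu-CTC fragments longer than the gel slice were read mostly in NAFLD libraries, a class of over 30 nt chosen after the values were seen. They held 410, 37 and 82 reads in NAFLD 1, 2 and 3, against 3, 0 and 2 reads in normal 1, 2 and 3. As a share of Glu-CTC reads this was 16.8%, 13.5% and 8.93% in NAFLD, and 1.19%, 0 and 0.862% in normal liver. The 95% Wilson interval, for counting error only, was 7.25% to 10.95% in NAFLD 3, the lowest NAFLD library, and 0.406% to 3.44% in normal 1, the highest normal one. The 2 conditions did not overlap, and the exact permutation test gave p = 0.1, or 0.3 after adjustment over the 6 groups. Of the 16 starts with at least 15 reads over 30 nt and reads in every library, 31.2% had a larger share of such reads in all NAFLD libraries. Reads over 30 nt as a whole were 941, 264 and 1498 in NAFLD and 35, 145 and 16 in normal liver, so the class was larger in NAFLD across all tags. Most of the Glu-CTC reads over 30 nt were 1 tag of 31 nt, which extends the 28-nt tag shown above by the bases GCG. It had 369, 30 and 65 reads in NAFLD and 2, 0 and 2 in normal liver. Normal 2 held 388 Glu-CTC reads of 28 nt or more but none over 30 nt. Lys-CTT had 3, 2 and 17 reads over 30 nt in NAFLD and 1, 0 and 0 in normal liver, and Val-AAC/CAC had 11, 2 and 1 against 0, 0 and 0 (exact permutation p = 0.1 for its share, 0.3 adjusted).

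The His-GTG fragments varied at their first base. Of the reads with the His start, 1801 had G before position 1, 555 had no base before it, 831 had T, 162 had A and 6 had C. The G form made up 62.5%, 50.5% and 43.1% of these reads in NAFLD and 49.9%, 37.7% and 53.2% in normal liver, and the T form 20.6%, 26.4% and 30.7% against 25.4%, 33.2% and 24.8%. Neither differed between conditions beyond the spread of the libraries (exact permutation p = 0.5 for G and 0.7 for T). The T and A forms do not meet the matching rule and are not in the His-GTG values above. In the other groups any 1 base stood before the start in at most 0.243% as many reads as the start itself.

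Some starts had a frequent neighbour that differed by 1 base. The Lys-CTT start differs from the Lys-TTT start at position 7 only, and the 2 starts had 823 and 70178 reads. Lys-TTT reads with a substituted C at that position would count as Lys-CTT, and their part in its values was not tested. Substitutions are written with the base of the start first, the position counted from the 5′ end, and the observed base last. For Glu-CTC, position 9 was substituted in 9.63% of reads (4.18% to 12.8% by library), mainly as G9C with 310 reads and G9A with 133 reads, and both occurred in all 6 libraries. The median of the other 17 positions was 0.11%, but position 14 was substituted in 6.03% and position 4 in 4.91% of reads. Those 2 were substituted mainly in the high substitution set, and exceeded position 9 in each of its libraries. In NAFLD 2 they were at 15.95% and 11.9%, against 7.74% for position 9. For Asp-GTC, 59.8% of reads differed from the start with A at position 9, as A9T, A9G and A9C with 358, 84 and 26 reads. Position 9 of His-GTG without the added G was substituted in 0 of 555 reads, and of Gly-GCC in 1.01%. The His-GTG form with the added G was not counted for this. Position 9 is a site of base methylation in many tRNAs, which was not measured here.

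For Gly-GCC the T5G neighbour had 916 reads, and made up 21.4%, 25.2% and 22.6% of the reads with either base in NAFLD and 16.2%, 9.55% and 13.2% in normal liver, so it occurred in both substitution sets. It was not counted as Gly-GCC, and whether it is the start of another glycine tRNA gene could not be read from the reference tables used. A14C behaved otherwise: it took 1018 reads of Val-AAC/CAC, 290 of Glu-CTC and 231 of Gly-GCC, all of them in the 3 libraries of the high substitution set.

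The 3′ ends of the same tRNAs were read beside the starts, as tags that end in CCA behind 1 base and 7 bases able to pair with the acceptor stem, a comparison added after the values were seen. The starts were below these ends in 6 of 6 libraries for Gly-GCC, Lys-CTT and Val-AAC/CAC, whereas Glu-CTC starts exceeded their ends in 5 of 6. Tags ending in CCA as a whole stood at 23790 to 39476 TPM in NAFLD and at 11673 to 16405 TPM in normal liver, so ends were read more in NAFLD in general. Lys-CTT ends were read at 566 to 865 TPM in NAFLD and at 17.002 to 92.0 TPM in normal liver, Glu-CTC ends at 68.7 to 136 and 11.2 to 18.7 TPM, His-GTG ends at 92.4 to 224 and 22.9 to 53.1 TPM, and Asp-GTC ends at 32.6 to 63.3 and 5.22 to 10.4 TPM. The ranges overlapped for Val-AAC/CAC, at 2242 to 5206 and 1389 to 2395 TPM, and for Gly-GCC, at 177 to 388 and 90.3 to 264 TPM. Lys-CTT starts were 0.0104 to 0.318 times as abundant as their ends. Val-AAC/CAC starts were 0.0585 to 0.135 times as abundant as their ends. Other tRNAs may share such ends.

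Among 16 other cytosolic tRNAs found by the same start rule, 14 passed the filter on low counts, and 0 of the 14 passed at an edgeR adjusted p under 0.05, with 1 of the 14 at an unadjusted p under 0.05. The estimate was above 0 for 14 of 14, with a median log2 fold change of 0.56, against 1.03 for the 6 groups and 1.11 for all starts. The 3 most abundant were Lys-TTT, Ser and Gly-TCC. Lys-TTT, the other lysine tRNA, was read at 1861, 804 and 547 TPM in NAFLD and at 1563, 317 and 873 TPM in normal liver, well above Lys-CTT in every library. Its log2 fold change was 0.22 ± 0.72 (SE), with an edgeR adjusted p of 0.838. Ser was read at 384, 272 and 230 TPM in NAFLD and at 383, 109 and 157 TPM in normal liver, and Gly-TCC at 442, 62.5 and 73.0 TPM against 119, 23.6 and 159 TPM. All 3 overlapped between conditions. With the substitution set as a covariate 2 of the 14 passed, Gly-TCC with a log2 fold change of 1.59 ± 0.32 (SE) and Ala, named after its values were seen, with 2.04 ± 0.36, at edgeR adjusted p of 0.0221 and 0.016. Ala was read at 178, 128 and 136 TPM in NAFLD and at 60.8, 28.3 and 37.4 TPM in normal liver. Every NAFLD library exceeded every normal one for Ala, as for 19.2% of all starts tested. Ala was also the start at an unadjusted p under 0.05, and DESeq2 called it at an adjusted p of 0.017.

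Blood cells carry 5′ tRNA fragments too, so blood-cell miRNAs are given beside them. The sum of miR-451-5p, miR-144-3p and miR-223-3p was 69.8, 25.8 and 53.2 TPM in NAFLD and 44.8, 32.3 and 29.3 TPM in normal liver. NAFLD 1 was highest here as in all 6 groups, and the order NAFLD 1, 3, 2 was also that of every group but Val-AAC/CAC. In normal liver 0 of the 6 groups followed the order of the blood sum. Reads under 18 nt were removed by the authors and made up 1.85% of reads in NAFLD 1, against 0.0706% to 0.483% in the other libraries. The part of blood content or RNA quality in the levels was not tested.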

How the data were processed

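Liver small RNA was measured in 3 NAFLD and 3 normal rats, grouped by the sample labels. The authors removed adaptors, contaminants, low-quality reads and reads under 18 nt and deposited the raw count of every remaining tag. Depth was 11601058 to 11880695 clean reads. Counts were summed per tag start of 18 bases. Starts with at least 15 reads in all that passed filterByExpr entered the quasi-likelihood test of edgeR 4.0.16 (R 4.3.3), in which all clean reads of a library were its size and p-values were adjusted by Benjamini-Hochberg at a threshold of 0.05. Standard errors were obtained from the log2 fold change and the F statistic. DESeq2 1.42.0, limma 3.58.1 on log2(TPM + 1), TMM, other filters, a replicate block and a substitution covariate were alternatives. Single values were compared by two-sided exact permutation tests (scipy 1.17.1). The edgeR step was tested on simulated data.

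The members and lists were chosen with earlier results of these data known. All 6 groups, the 3 tags of highest mean TPM in each and the 3 most abundant other tRNA starts could be named, and Ala, A14C and the Glu-CTC class over 30 nt were outside that rule. Each start was the most-read one behind a 7-base start, with T at position 8, A at 14 and neighbouring Gs near 18. The replicate numbers did not pair the libraries. Intervals describe counting error alone, because reads were amplified by PCR and carried no molecular identifiers. miR-486 was not matched.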

Additional observations from a re-analysis of the deposited data

How the results depend on the processing

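The count of starts past the threshold was 0 with total clean reads, TMM, limma, no filter, the replicate block and with any library left out. It was 18 with at least 10 reads in every library, 92 with DESeq2, 845 with the substitution set as a covariate and 844 with 1 substitution allowed as well, an alternative chosen after seeing the data. The members called under the covariate were Lys-CTT (2.54, and 2.53 with 1 substitution) and His-GTG (1.44 and 1.39). The cause was not tested.

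On the log2 scale, Gly-GCC was at -0.20 with TMM, -0.29 with DESeq2 and -1.43 relative to reads of 26 nt or more. Val-AAC/CAC was at -0.42, -0.50 and -1.79 under the same 3, and at -0.082 without the 10 most abundant tags. Glu-CTC fell from 2.03 to 0.95 with TMM, 0.82 with DESeq2 and 0.096 relative to reads of 26 nt or more, and Lys-CTT from 2.02 to 1.20 and 1.13 with the first 2 of these. His-GTG was at 0.084 with TMM and -0.00056 with DESeq2, and Asp-GTC at 0.20 and 0.13. Relative to reads of 26 nt or more, Lys-CTT was at -0.25, His-GTG at -1.21, Asp-GTC at -1.29 and the sum at -1.21. The median over all starts was at -0.83 with that scaling. Leaving out each library in turn gave -0.059 to 1.10 for Gly-GCC, -0.14 to 1.01 for Val-AAC/CAC and -0.13 to 1.94 for Asp-GTC, with the lowest value in each without NAFLD 1. It gave 0.18 to 1.05 for the sum, 0.99 to 2.50 for Glu-CTC, 1.31 to 2.48 for Lys-CTT and 0.12 to 1.34 for His-GTG. The cause of these changes was not tested.

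The difference in the share of long fragments, in percentage points, turned for Gly-GCC from -7.42 to 14.5 with each tag counted once, 3.79 with the limit at 28 nt and 12.1 within the low substitution set. Within the high set it turned to -7.95 for Glu-CTC, -9.76 for Lys-CTT, -0.42 for Val-AAC/CAC, -0.65 for His-GTG and -5.94 for Asp-GTC. Leaving out each library gave -15.8 to 1.01 for Gly-GCC and -0.33 to 0.69 for His-GTG. Depth limits Asp-GTC and Lys-CTT most, with as few as 8 and 22 reads in a library.

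The replicate numbers did not pair the libraries. The correlation of same-numbered deviations was 0.81, 0.80 and -0.67, but it was also 0.86 for NAFLD 3 with normal 2 and 0.74 for NAFLD 1 with normal 3. Pairs within 1 substitution set were all positive, and pairs across the sets were all negative. The replicate block called 0 starts, as did the fit without it.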
